A study of Mus musculus with 6 samples.

Results

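The genes described here encode the sarcomere and the structures around it in striated muscle: the thick and thin filaments, the M band, the Z disc, the muscle membrane and a few enzymes and binding proteins of muscle fibres. They are 45 listed genes of the 23458 genes or unnamed transcripts tested in the series, taken from the arrays by the RefSeq accession of each probe. The list was drawn up with the difference between the diets already known, so that difference is given as a description, with no p-value for the members. Of the 45 genes, 44 had a probe and 41 had one that stood well above background on 3 or more of the 6 arrays, Srpk3 by the smallest margin with 3 control arrays. Myh4 lay just outside with 2 control arrays, at levels of -6.39, -6.43 and -7.57 on control replicates 1 to 3 and -7.82, -8.07 and -7.75 on high-fat replicates 1 to 3. Mybpc2, with 1 array of each diet, and Myh2, with none, were left out as well, and Smpx was not analysed here.

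RNA came from mammary glands of 6 female mice, each Trp-53 knockout, taken at 8 weeks of age and hybridised to 1 single-colour Agilent array per mouse. Controls (CD) ate a control diet and the other mice a high-fat diet (HFD) for 5 weeks from 3 weeks of age, with 3 mice in each group. Controls carry the knockout too, so wild-type glands are outside the comparison. Per the labels the source was the gland, whereas the description of each sample speaks of mammary epithelial cells, and which of them gave the RNA is not known.

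Muscle contracts when myosin heads of the thick filament pull on actin of the thin filament. Troponin on the thin filament gates this pull in response to calcium, the Z disc anchors the thin filaments, and the M band links the thick ones. Most of these proteins come in forms from separate genes: developmental forms made before birth and in regenerating fibres, slow forms shared with the heart, and fast forms of adult limb muscle. A mammary gland lies under the skin beside body-wall muscle, and its own contractile cells, the myoepithelium, use smooth muscle proteins instead.

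A level is the log2 processed signal less the 75th percentile of its array. A difference is the high-fat mean less the control mean, given with its standard error (SE) from the limma fit over all genes. Levels of different probes cannot be compared with each other. The 75th percentile ran from 1326 to 1973 intensity units over the arrays, between 27202 and 29409 of 39429 probes were well above background, and no spot was saturated. The number of arrays limits the precision, and the values also depended on the background correction, as given below. Markers of luminal epithelium (16 of 16 genes), smooth muscle and myoepithelium (15 of 15), fibroblasts (12 of 12), endothelium (10 of 10) and white adipocytes (12 of 12) were measured. Adipoq, the adipocyte hormone, was well above background on 3 high-fat and 2 control arrays.

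Muscle structural genes had lower values after the high-fat diet. Of the 41 measured members, 33 differed by a negative value, with a median log2 difference of -1.08, against 51.1% of all genes tested and a median of -0.01. In 30 members every high-fat array lay below every control array, and in Dysf every high-fat array lay above, while 8.75% of all genes lay below in this way and 8.47% above. The remaining 10 overlapped. Srpk3, among those below, passed the filter through control arrays alone. Of all genes tested, 0.0171% passed limma at an adjusted p of 0.05 as lower and 0.00% as higher (1750 and 1379 genes at an unadjusted p under 0.05), and Myh3 and Myl4 were the members among them. These counts come from the contrast that chose the list and carry no weight of their own. Without high-fat replicate 3 the passing members numbered 7, and without any other single array 0.

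The mean over the 41 measured members was -2.33, -2.24 and -2.54 on control replicates 1 to 3 and -3.50, -3.57 and -3.66 on high-fat replicates 1 to 3. The 3 high-fat arrays all lay below the 3 control arrays on this mean. Within the control group, replicate 3 was the lowest in 23 of 41 members and replicates 1 and 2 the highest in 18 and 19. In the high-fat group, replicate 1 was the lowest in 3 members and replicates 2 and 3 in 19 each. In a bulk sample, fewer muscle cells and less RNA per cell cannot be told apart.

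**Figure D1:**
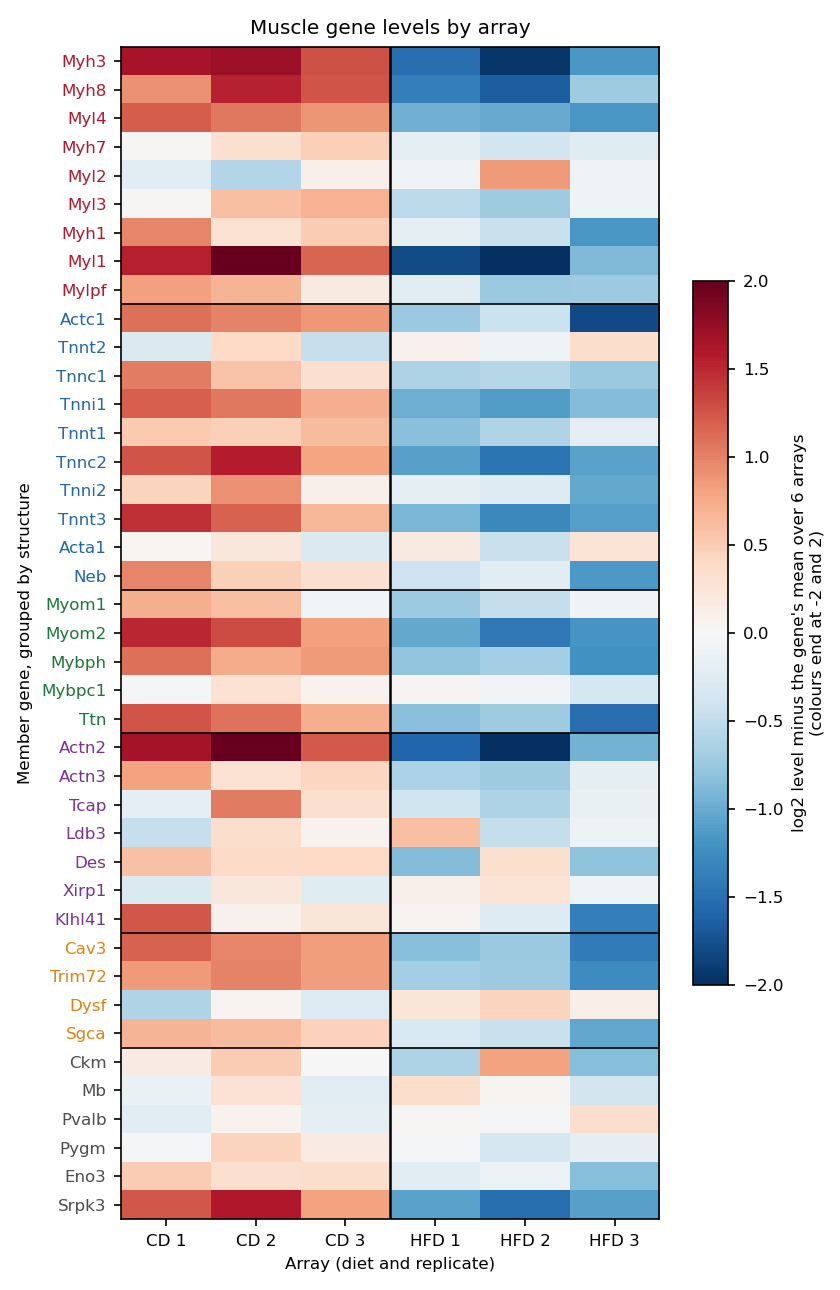
Level of each measured member on each array, as log2 level minus the gene's mean over the 6 arrays (colour, ending at -2 and 2), with genes in rows grouped by structure and arrays in columns. Most rows change from high (red) in the 3 control arrays to low (blue) in the 3 high-fat arrays, as for Myh3, Myl1 and Actn2, while Acta1, Mb, Pvalb and Xirp1 show no such step.

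The values were computed again from median spot and background signals with normexp (offset 50) in place of the processed signal. With this and the same 75th percentile, the median of all genes moved to 0.27 and that of the members to 0.12. There 28 of 41 members lay below the median of all genes, 19 had negative differences, and 11 had every high-fat array below every control array. The difference turned positive for 12 members that did not overlap: Myh7, Myl3, Myh1, Mylpf, Neb, Myom1, Actn3, Klhl41, Trim72, Sgca, Pygm and Srpk3. It also turned positive for Mybpc1, Tcap and Ckm, which overlapped, and negative for Acta1. The difference shrank to -0.12 for Ttn, -0.18 for Des, -0.51 for Actn2, -0.68 for Tnnc1, -0.91 for Mybph and -1.03 for Myh8. It also shrank to -1.23 for Tnni1, -1.26 for Cav3, -1.31 for Myom2, -1.43 for Tnnt3, -2.60 for Myl1 and -2.76 for Myh3. It moved by less than the spread between replicates for Tnnc2 (-2.19), Myl4 (-2.10) and Actc1 (-1.85). With normexp and quantile scaling 33 of 41 members were negative and 30 had every high-fat array below every control array. The shares of all genes that lay apart in these normexp settings are not given here, so the counts of 11 and 30 have no background beside them.

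RefSeq promoter windows (GRCm38.p6, from 250 bases before to 50 after each start) were at hand for 38 of the 45 members, 47 windows in all. Searched on both strands, the E-box CAGCTG, bound by myogenic basic helix-loop-helix factors, was in 42.6% of these windows and in 16.3% of all 32851 windows. The broader E-box CANNTG, which includes it, was in 83.0% and 72.3%. The MEF2 motif was in 14.9% and 3.19%, the CArG box, bound by serum response factor, in 14.9% and 1.63%, the MCAT element CATTCC in 27.7% and 14.7%, and TATAAA in 25.5% and 13.6%. These shares describe letters in a window and show no binding. The windows of 6 genes are printed for the genes on which the isoform comparison turns, 150 bases each and ending at the base before the start, with CAGCTG, MEF2, CArG, CATTCC and TATAAA matches in capitals.
Myh3, chr11:67078150-67078299, plus strand: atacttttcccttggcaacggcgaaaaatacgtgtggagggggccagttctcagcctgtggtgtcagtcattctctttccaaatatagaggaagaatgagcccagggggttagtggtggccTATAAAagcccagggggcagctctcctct
Myh8, chr11:67276974-67277123, plus strand: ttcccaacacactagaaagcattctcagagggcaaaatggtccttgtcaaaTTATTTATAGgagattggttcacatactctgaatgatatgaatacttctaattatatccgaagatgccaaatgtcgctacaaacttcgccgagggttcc
Myl4, chr11:104550513-104550662, plus strand: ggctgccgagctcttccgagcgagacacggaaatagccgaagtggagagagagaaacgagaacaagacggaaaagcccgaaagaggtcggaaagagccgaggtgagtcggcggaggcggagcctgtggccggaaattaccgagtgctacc
Myl1, chr1:66945057-66945206, minus strand: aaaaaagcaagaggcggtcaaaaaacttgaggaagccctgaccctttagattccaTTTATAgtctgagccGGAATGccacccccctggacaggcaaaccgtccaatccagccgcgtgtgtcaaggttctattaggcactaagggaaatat
Actc1, chr2:114052876-114053025, minus strand: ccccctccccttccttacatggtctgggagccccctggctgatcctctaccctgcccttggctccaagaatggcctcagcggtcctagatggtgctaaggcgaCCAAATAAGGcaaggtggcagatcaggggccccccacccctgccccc
Acta1, chr8:123894776-123894925, minus strand: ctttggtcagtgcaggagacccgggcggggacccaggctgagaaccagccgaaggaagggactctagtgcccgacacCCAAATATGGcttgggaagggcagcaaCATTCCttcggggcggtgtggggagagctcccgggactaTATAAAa
Myh3 held TATAAA at bases -29 to -24 from the start. In Myh8 the MEF2 match at -99 to -90 overlaps the TATAAA match at -96 to -91. Actc1 and Acta1, the cardiac and the skeletal actin, both held a CArG box, at -47 to -38 and at -73 to -64. Values of the diets were apart in Actc1 and overlapped in Acta1, and a link to the motif was not tested. Myl4 held no match in these 150 bases, and no match says only that these letters are not in the window.

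On the thick filament 8 of 9 measured members had every high-fat array below every control array, against 8.75% of all genes. The median over the 9 was -1.19, and the list was drawn up with this contrast known. Myh3, the embryonic myosin heavy chain, had levels of 1.46, 1.52 and 1.09 on control replicates 1 to 3 and -1.72, -2.13 and -1.35 on high-fat replicates 1 to 3. Its groups lay 2.44 apart at their nearest arrays, and its second probe differed by -3.04, close to the -3.09 (SE 0.23) of the first. Myh8, the neonatal heavy chain, had control levels of -2.57, -1.94 and -2.22 and high-fat levels of -4.85, -5.14 and -4.20, a difference of -2.48 (SE 0.28). A second and dimmer Myh8 probe, well above background on 3 control arrays and 1 high-fat array, overlapped between the diets and differed by -0.05. Myl4, the light chain of atrial and embryonic muscle, stood at 3.00, 2.85 and 2.69 under control and 0.83, 0.78 and 0.63 under high-fat diet, a difference of -2.10 (SE 0.14) and the smallest SE of any member. All 3 developmental myosin genes were therefore apart between the diets, by a median of -2.48.

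Fast myosin genes were lower too, at 3 of 3 measured. Myl1, the fast essential light chain, had control levels of 0.75, 1.24 and 0.36 and high-fat levels of -2.58, -2.87 and -1.68, an 8.94-fold lower signal (log2 difference -3.16, SE 0.36). Its second and dimmer probe, well above background on 3 control arrays and 1 high-fat array, differed by -3.49, a value limited by dim signals. Myl1 is also made in developing muscle. Myh1, a fast heavy chain, went from -4.35, -5.03 and -4.83 on the control to -5.51, -5.77 and -6.50 on the high-fat arrays (-1.19, SE 0.30, but 0.40 with normexp and the 75th percentile). Mylpf, the fast regulatory light chain, had control levels of -6.00, -6.15 and -6.64 and high-fat levels of -7.05, -7.57 and -7.56 (-1.13, SE 0.23, 0.56 with normexp), with 1 of 3 high-fat arrays well above background. Myh1 and Mylpf were dim on both diets, and the other fast heavy chains, Myh2 and Myh4, did not reach the filter.

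Slow or cardiac myosin genes had a median of -0.54 over 3. Myh7, the slow and ventricular heavy chain, had control levels of -4.56, -4.27 and -4.10 and high-fat levels of -4.77, -4.96 and -4.82 (-0.54, SE 0.16, 0.38 with normexp). Myl3, the slow essential light chain, had -4.56, -3.98 and -3.88 under control and -5.11, -5.28 and -4.67 under high-fat diet (-0.88, SE 0.25, 0.17 with normexp), its nearest arrays 0.11 apart. Myl2, the slow regulatory light chain, overlapped, with control levels of -7.35, -7.71 and -7.02 and high-fat levels of -7.19, -6.27 and -7.20 (0.48, SE 0.31), and exceeded background well on 2 control arrays of 3. Whether the slow and the developmental forms differ in their response was not tested, since both differences come from the contrast that chose the genes. Myosin heavy chain transcripts resemble each other closely, and cross-hybridisation between their probes was not analysed here.

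**Figure D2:**
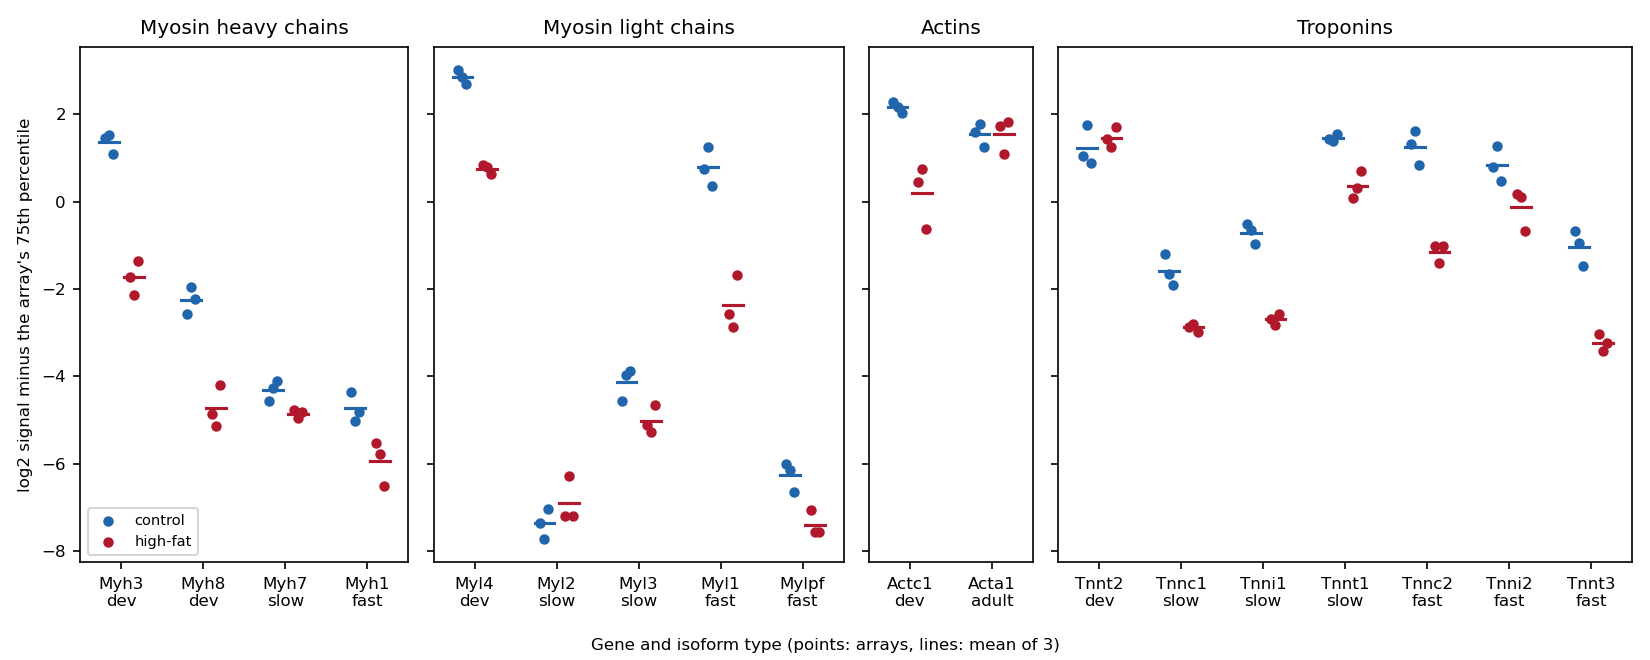
Level of each array (points) and the mean of 3 (lines) for myosin heavy chains, myosin light chains, actins and troponins, with the isoform type under each gene (dev: developmental); the axis is the level on the log2 scale, and levels are not comparable between genes. Control (blue) and high-fat (red) points are apart for Myh3, Myl4, Actc1, Tnni1 and Tnnc2 and overlap for Myl2, Acta1 and Tnnt2. With normexp and the 75th percentile Myh7, Myl3, Myh1 and Mylpf had positive differences, where the median of all genes was 0.27.

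On the thin filament, 8 of 10 members had every high-fat array below every control array, against 8.75% of all genes. Actc1, the cardiac actin that developing skeletal muscle also makes, had control levels of 2.27, 2.17 and 2.04 and high-fat levels of 0.44, 0.75 and -0.62, a difference of -1.97 (SE 0.35), with high-fat replicate 3 the lowest array. Acta1, the adult skeletal actin, overlapped at 1.59, 1.77 and 1.25 under control and 1.73, 1.09 and 1.82 under high-fat diet (0.01, SE 0.24). Its probe was well above background on all 6 arrays. Neb, the ruler protein of the thin filament, had control levels of -3.47, -3.97 and -4.12 and high-fat levels of -4.86, -4.65 and -5.59 (-1.18, SE 0.29, 0.12 with normexp), and its second probe differed by -1.69.

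Fast troponins, the subunits that bind calcium, inhibit the filament and hold tropomyosin, were lower at 3 of 3. Tnnc2, fast troponin C, had control levels of 1.31, 1.62 and 0.84 and high-fat levels of -1.03, -1.40 and -1.01 (-2.40, SE 0.23). Tnnt3, fast troponin T, had -0.67, -0.95 and -1.47 and -3.04, -3.42 and -3.23 (-2.20, SE 0.23), and its other probe differed by -2.14. Tnni2, fast troponin I, had 0.79, 1.27 and 0.46 and 0.18, 0.09 and -0.67 (-0.97, SE 0.30), the smallest difference of the fast troponins. The groups lay 1.85 apart at their nearest arrays in Tnnc2 and 0.28 apart in Tnni2.

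Slow troponins were lower at 3 of 3 as well. Tnni1, the slow troponin I that fetal muscle also uses, had control levels of -0.52, -0.65 and -0.97 and high-fat levels of -2.69, -2.83 and -2.57 (-1.98, SE 0.16). Tnnc1, the slow and cardiac troponin C, had -1.21, -1.67 and -1.91 and -2.86, -2.80 and -2.97 (-1.28, SE 0.20), and Tnnt1, the slow troponin T, had 1.42, 1.38 and 1.53 and 0.07, 0.31 and 0.70 (-1.08, SE 0.18). In each the high-fat arrays all lay below the control arrays, against 8.75% of all genes. Tnnt2, the cardiac troponin T that embryonic skeletal muscle also makes, overlapped, with 1.05, 1.74 and 0.89 under control and 1.43, 1.25 and 1.70 under high-fat diet (0.23, SE 0.26). It was the 1 troponin of 7 with a positive difference.

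For the M band, titin and the myosin-binding proteins, 5 of 5 measured members had negative differences (51.1% of all genes), with a median of -1.79. In 4 of them every high-fat array lay below every control array, against 8.75% of all genes. Myom2, an M-band protein of fast fibres, had control levels of -1.16, -1.36 and -1.84 and high-fat levels of -3.69, -4.10 and -3.85 (-2.43, SE 0.21). Ttn, the giant spring of the sarcomere, had -3.64, -3.81 and -4.18 and -5.73, -5.61 and -6.41 (-2.04, SE 0.26), and its second kept probe was well above background on 0 high-fat and 3 control arrays. Mybph, a myosin-binding protein, had -1.33, -1.70 and -1.59 and -3.23, -3.11 and -3.65 (-1.79, SE 0.19). In these 3 genes the nearest arrays of the diets lay 1.41 to 1.85 apart. Myom1 differed by -0.86 (SE 0.27) with 0.01 between the nearest arrays (0.47 with normexp), and Mybpc1, the slow myosin-binding protein C, overlapped at -0.23 (SE 0.16).

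At the Z disc, which anchors thin filaments, 4 of 7 measured members had every high-fat array below every control array, against 8.75% of all genes. Actn2, the alpha-actinin of heart and slow and fast fibres, had control levels of -3.55, -3.12 and -3.98 and high-fat levels of -6.79, -7.67 and -6.15, a difference of -3.32 (SE 0.41). On high-fat arrays 2 of 3 were well above background, and the difference was -3.04 with a floor on dim signals and -0.51 with normexp and the 75th percentile. Actn3, the fast-fibre alpha-actinin, had -3.67, -4.17 and -4.04 and -5.10, -5.19 and -4.66 (-1.02, SE 0.20, 0.01 with normexp). Klhl41, a ubiquitin ligase adaptor of the sarcomere, had -4.88, -6.05 and -5.90 and -6.07, -6.39 and -7.50 (-1.04, SE 0.46, 0.56 with normexp), with 2 of 3 high-fat arrays well above background and 0.02 between the nearest arrays. Des, the muscle intermediate filament, differed by -0.90 (SE 0.33) with 0.07 between the nearest arrays, a close separation.

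The rest of the Z-disc members overlapped. Tcap, the titin cap, differed by -0.78 (SE 0.32), and Xirp1, an actin-binding protein, by 0.19 (SE 0.19). Ldb3, a Z-disc PDZ protein, differed by 0.02 (SE 0.33), and its other probe by -0.35. It was the 1 gene of 7 with several kept probes whose probes differed in sign.

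Muscle membrane genes split. Cav3, the muscle caveolin, had control levels of -0.65, -0.85 and -0.99 and high-fat levels of -2.67, -2.56 and -3.22 (-1.99, SE 0.21). Trim72, which patches membrane wounds, had -4.50, -4.36 and -4.51 and -6.05, -6.07 and -6.60 (-1.78, SE 0.18, 0.18 with normexp), and Sgca, alpha-sarcoglycan of the dystrophin complex, had -4.86, -4.90 and -5.08 and -5.85, -5.99 and -6.58 (-1.19, SE 0.21, 0.32 with normexp). All 3 had every high-fat array below every control array (8.75% of all genes), with high-fat replicate 3 the lowest. Dysf, a membrane repair protein that white blood cells and endothelium also make, went the other way, with -1.24, -0.58 and -0.91 under control and -0.40, -0.19 and -0.51 under high-fat diet (0.55, SE 0.20) and 0.07 between the nearest arrays.

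The enzymes and binding proteins of muscle fibres (energy, calcium buffer and kinase) had a median of -0.41 over 6. Srpk3, a muscle protein kinase, had control levels of -5.12, -4.76 and -5.55 and high-fat levels of -7.44, -7.86 and -7.44. It was well above background on no high-fat array and passed the filter through its 3 control arrays alone. By the processed signal it was at least 4.21-fold lower on high-fat arrays, but it differed by 0.25 with normexp and the 75th percentile. The bound sets the control mean against the lowest signal well above background, or the probe's own where higher, on each high-fat array. Eno3, the muscle enolase, had 0.46, 0.28 and 0.31 and -0.26, -0.16 and -0.90 (-0.79, SE 0.22), and Ckm, the muscle creatine kinase, overlapped with -5.84, -5.51 and -6.02 and -6.63, -5.20 and -6.86 (-0.44, SE 0.44). Of the others, Pygm, the muscle glycogen phosphorylase, differed by -0.38 (SE 0.17) (0.14 with normexp) with less than 0.01 between the nearest arrays. Mb, the oxygen store myoglobin, and Pvalb, the calcium buffer of fast fibres, overlapped at 0.03 (SE 0.23) and 0.24 (SE 0.16).

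**Figure D3:**
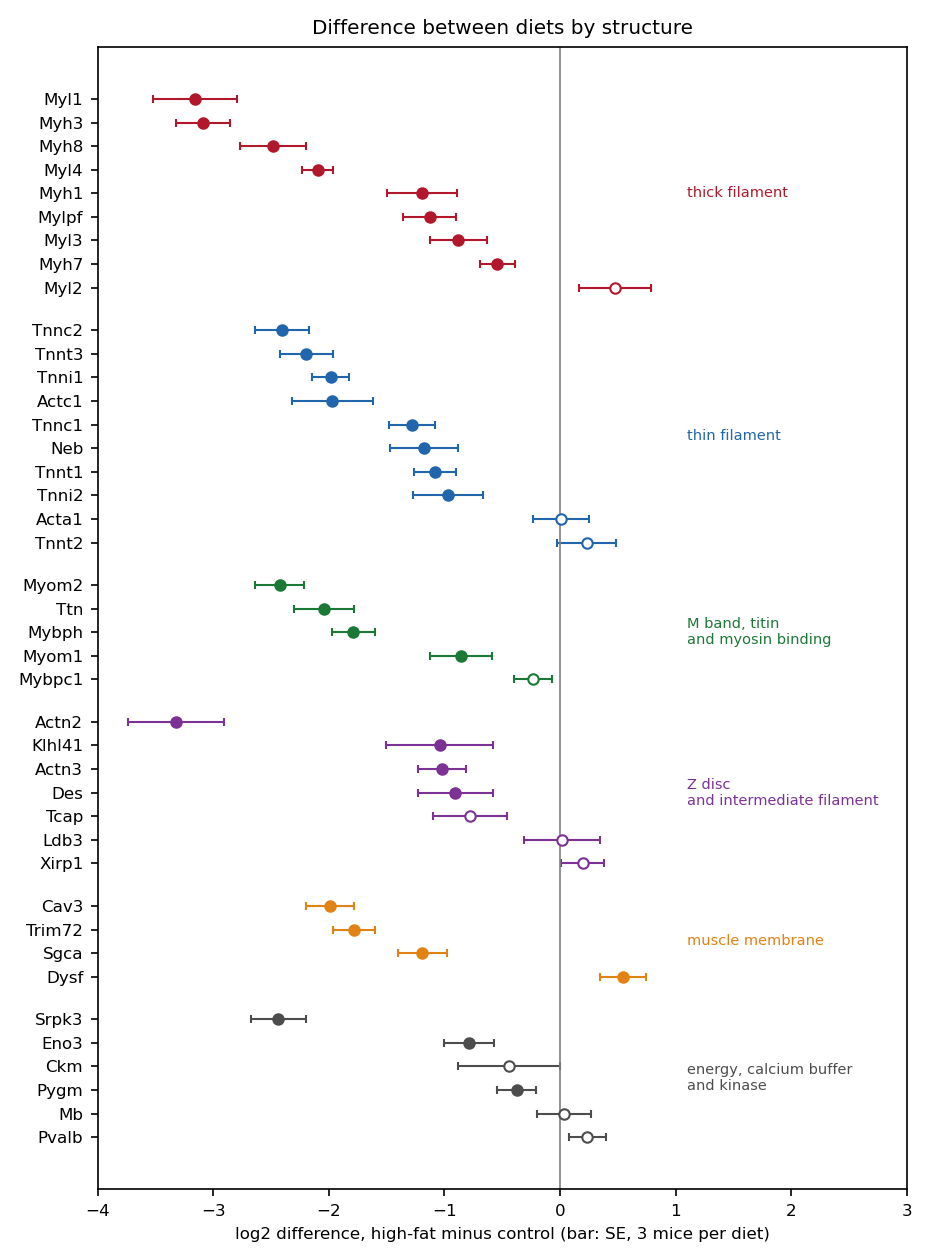
Log2 difference, high-fat minus control, of each measured member with its SE (3 mice per diet), by structure; filled points have every array of one diet on one side of the other diet, open points overlap. Differences reach -3.32 for Actn2 and 0.55 for Dysf, and 33 of 41 lie below 0. With normexp and the 75th percentile 19 of 41 lay below 0, and 28 of 41 below the median of all genes, 0.27.

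By isoform type, the median difference was -2.10 over 5 developmental forms, -1.70 over 6 measured fast forms of 8, and -0.98 over 6 slow or cardiac forms. The mean level of the developmental forms was 1.04, 1.27 and 0.90 on control replicates 1 to 3 and -0.77, -0.90 and -0.77 on high-fat replicates 1 to 3. For the fast forms it was -1.36, -1.33 and -1.88 and -3.17, -3.49 and -3.44, and for the slow forms -2.80, -2.82 and -2.73 and -3.76, -3.64 and -3.59. Every type was apart between the diets on this mean of processed signals. With normexp and the 75th percentile (all genes 0.27), Myh7 (0.38), Myl3 (0.17), Myh1 (0.40) and Mylpf (0.56) turned positive. Myl2 and Tnnt2 were positive either way, and the others of these types stayed negative. Whether the types differ was not tested, since the genes were chosen on this contrast. Within types the members were far apart: the developmental forms ran from Myh3 at -3.09 to Tnnt2 at 0.23, the fast forms from Myl1 at -3.16 to Tnni2 at -0.97, and the slow forms from Tnni1 at -1.98 to Myl2 at 0.48.

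Of the 3 slides, a single one carried both diets, with high-fat replicates 2 and 3 and control replicate 1. Within it 35 of 41 members had negative differences, with a median of -1.43. Both high-fat arrays lay below the control array in 31 members, or 75.6%, against 25.2% of all genes. The differences there were -3.20 for Myh3, -2.30 for Myl4, -3.03 for Myl1, -2.52 for Tnnc2 and -3.36 for Actn2. Klhl41 was larger within the slide (-2.06), and Myh7 (-0.33), Myl3 (-0.42) and Tcap (-0.19) were smaller. With 1 control array on that slide, its spread within the slide is not known.

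**Figure D4:**
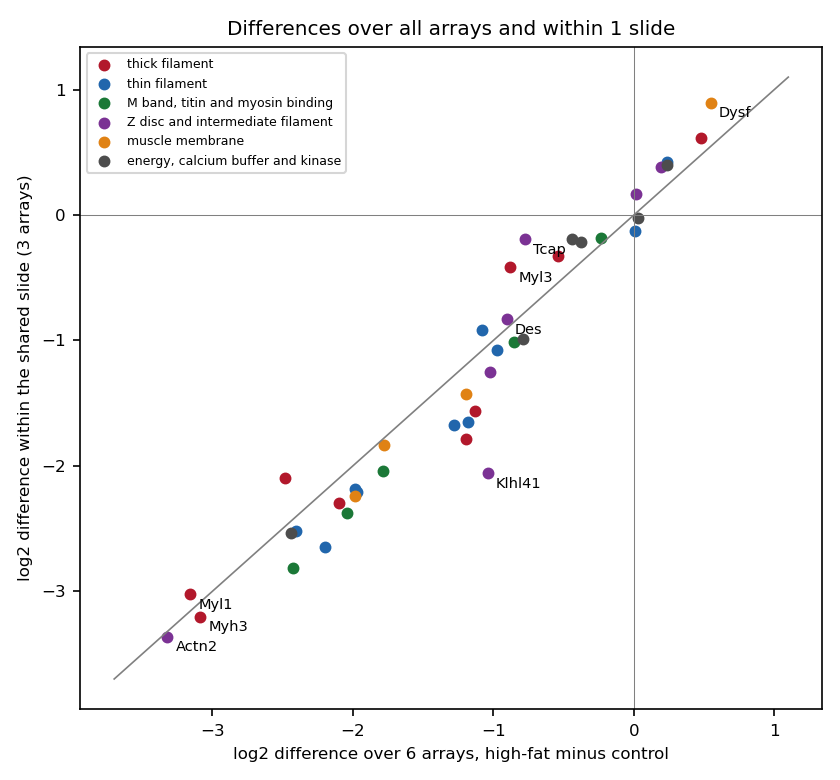
Log2 difference of each measured member over all 6 arrays (horizontal) and within the slide that held both diets (vertical, 3 arrays), with colours for structures and a line where both are equal. Actn2 lies near the line (-3.32 over all arrays and -3.36 within the slide), while 14 of 41 members moved by more than the spread between replicates, Klhl41 to -2.06, Myh1 to -1.79, Myl3 to -0.42 and Tcap to -0.19. The arrays of the vertical axis are among those of the horizontal one.

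Other muscle genes were taken from 4 further lists. Of 35 measured genes among 42 further sarcomere genes, 0 passed limma over all genes in either direction (14 at an unadjusted p under 0.05), 22 had negative differences and the median was -0.38. In 11 of them every high-fat array lay below every control array, and in 4 above, against 8.75% and 8.47% of all genes. Of the 23458 genes tested, 51.1% had negative differences and 3129 had an unadjusted p under 0.05 in limma. Capn3, a muscle calpain, differed by -2.14 (SE 0.23) and Lmod3, a thin filament nucleator, by -1.44 (SE 0.22). With normexp and the 75th percentile these were -0.29 and -0.44. Trim63, a ubiquitin ligase of the sarcomere, was well above background on no high-fat array. By the processed signal it was at least 2.83-fold lower there, but it differed by 0.28 with normexp and the 75th percentile. Tpm2, a tropomyosin that smooth muscle also makes, differed by 0.95 (SE 0.15), with every high-fat array above every control array. In limma the adjusted p was 0.092 for Capn3, 0.117 for Trim63 and 0.132 for Lmod3 and Tpm2.

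Around the sarcomere, 18 genes of calcium coupling gave 1 past limma as lower, 0 higher and a median of -0.60. That gene was Cacna1s, the calcium channel that senses voltage in the fibre membrane (-2.16, SE 0.14, adjusted p = 0.039 in limma), with levels of -2.12, -2.05 and -2.33 under control and -4.23, -4.51 and -4.22 under high-fat diet. The call was lost with quantile scaling, normexp and the 75th percentile, no filter, a slide block, the replicate block, and on leaving out any single array other than high-fat replicate 3. Hrc, a calcium-binding protein of the store, differed by -1.20 (SE 0.11), and Ryr1, the store's release channel, by -0.71 (SE 0.13), or 0.33 with normexp and the 75th percentile. Sln, which slows the calcium pump, was well above background on no high-fat array. By the processed signal it was at least 6.26-fold lower there, and its difference with normexp is not given here. Of 19 measured myogenic regulators and fusion genes 0 passed limma (6 unadjusted), 14 were negative and the median was -0.48, with Mymx, a fusion peptide of myoblasts, at -1.76 (SE 0.54) and Chrna1, the muscle acetylcholine receptor, at -0.71 (SE 0.22). Pax7 and Myf5, which mark muscle stem cells, did not reach the filter. Of 16 dystrophin complex and costamere genes 0 passed limma (2 unadjusted), 10 were negative and the median was -0.13, with Sgcd at -1.30 (SE 0.36) and Vcl, the focal adhesion protein vinculin, at 0.53 (SE 0.15). Over all 23458 genes tested, 51.1% were negative and 3129 had an unadjusted p under 0.05 in limma. In the normexp setting with the 75th percentile the differences were -1.01 for Cacna1s, -0.70 for Hrc, -0.75 for Mymx and -0.64 for Sgcd, and without high-fat replicate 3 Mymx differed by -1.12. With normexp and the 75th percentile all of these list medians were positive, from 0.12 to 0.31, where the median of all genes was 0.27.

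Marker lists of other cells had values of both signs. None of the fibroblast, brown adipocyte, smooth muscle and luminal lists had a gene past limma, 0 in either direction, with 5, 3, 10 and 4 genes at an unadjusted p under 0.05. Over all 23458 genes tested, 3129 were at such a p in limma and 51.1% had negative differences. The fibroblast list had negative differences in 11 of 12 genes, and its mean ran from 3.11 to 4.28 on high-fat and from 3.97 to 4.83 on control arrays, so the diets overlapped. High-fat replicate 3 had the highest fibroblast mean of its diet and the lowest muscle mean of all arrays. The brown adipocyte list, which holds Cox8b and Cox7a1, genes that muscle also expresses, was negative in 8 of 10 genes, with means of -4.64 to -4.50 on high-fat and -4.13 to -3.83 on control arrays. Its defining gene Ucp1 was well above background on 1 of 3 high-fat arrays and differed by -0.93 (SE 0.38), or 0.69 with normexp and the 75th percentile. Smooth muscle and myoepithelial genes had positive differences in 15 of 15, with means of 2.22 to 2.32 on high-fat and 1.24 to 1.59 on control arrays, opposite to the striated genes. Luminal genes had positive differences in 14 of 16, with means of 0.13 to 1.15 on high-fat and -0.07 to 0.50 on control arrays, which overlapped. The part of these differences in the muscle gene values was not tested.

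The remaining lists gave these values. Heart markers had 8 of 12 genes measured, with 0 past limma (4 at an unadjusted p under 0.05) and a median of -0.44. Myoz2, Myl7, Myh6 and Tnni3 are also among the further sarcomere genes, so these lists share genes. The heart list was led by Myoz2, a Z-disc protein also made in slow skeletal fibres. By the processed signal it was at least 2.87-fold lower under the high-fat diet, but it differed by 0.28 with normexp and the 75th percentile. Myl7, the atrial light chain that partners Myl4 in the heart, differed by 1.36 (SE 0.49) with overlapping arrays. White adipocytes (median 0.14), endothelium (0.41), leukocytes (0.31) and nerve and Schwann cells (0.05) each had 0 genes past limma, and 3, 0, 1 and 4 at an unadjusted p under 0.05.

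**Figure D5:**
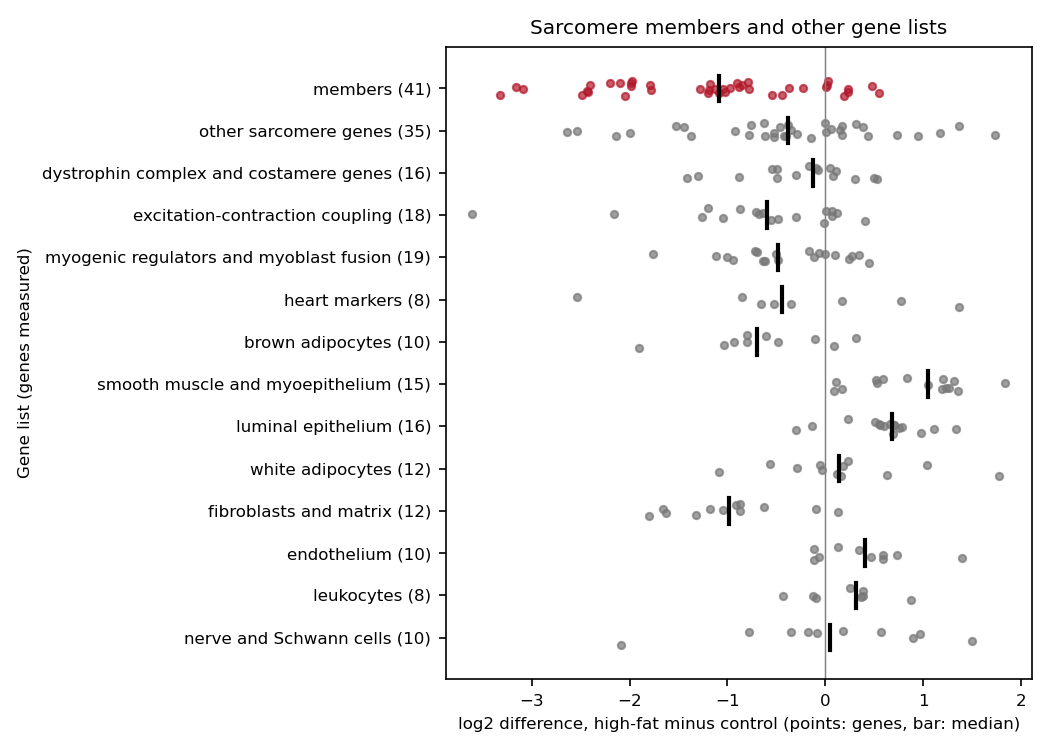
Log2 difference, high-fat minus control, of every measured gene (points) in the member list and in 13 other gene lists, with the median of each list as a bar and the number of genes measured in brackets. The member median is -1.08 and that of smooth muscle and myoepithelium 1.05. With normexp and the 75th percentile the member median was 0.12 and that of all genes 0.27. Heart markers and other sarcomere genes share some genes.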

How the data were processed

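In all, 6 single-colour Agilent arrays, 1 per mouse, were analysed. The deposited scanner files hold intensity values from Agilent Feature Extraction 11.0.1.1, per the file headers; its processed signal is background-subtracted. The authors' deposited table, used as an alternative, holds linear values close to this signal divided by its 75th percentile (scaling inferred from the values; column medians 0.134 to 0.140, no centring seen). Here log2 processed signal minus each array's 75th percentile was tested with limma 3.58.1 in R 4.3.3 (Benjamini-Hochberg, adjusted p under 0.05). Of 39429 probes, 28687 well above background on at least 3 arrays were kept, and the probe with the highest mean stood for its gene. Normexp alternatives (offset 50) used median spot and background signals.

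The members and all gene lists were chosen with earlier results of these data known. Array values are given for members past the threshold and for up to 3 members per structure and isoform class with the largest absolute differences; those of Dysf and Myh4 were added after their values were seen; each other list is named by genes among its 4 smallest p-values or chosen after its values were seen. Fits were tested on simulated data. Promoter sequences are RefSeq's (GRCm38.p6). Matplotlib 3.10.9 drew the plots.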

Additional observations from a re-analysis of the deposited data

How the results depend on the processing

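The 4 genes past limma became 0 with quantile scaling (3210 at an unadjusted p under 0.05), normexp and the 75th percentile (1098), no filter (3165), a slide block (1232) and the replicate block (4044), and 7 with normexp and quantile scaling or a filter on all 6 arrays. Leaving out 1 array gave 0 to 37, the 37 without high-fat replicate 3. Same-numbered arrays correlated at 0.33, -0.14 and 0.25 in their deviations from the diet means, which does not meet the rule for pairing (every correlation over 0.1), and a pairing was neither shown nor excluded. The members' median difference became 0.12 with normexp and the 75th percentile (all genes 0.27), -0.51 with normexp and quantile scaling and -1.43 with a slide block, and ran from -1.27 to -1.0 with 1 array left out. The count of members with every high-fat array below every control array became 11 with normexp and the 75th percentile and was 30 to 32 with 1 array left out. The share of all genes apart in these settings is not given here. In that normexp setting, 12 members that had not overlapped turned positive: Myh7 0.38, Myl3 0.17, Myh1 0.40, Mylpf 0.56, Neb 0.12, Myom1 0.47, Actn3 0.010, Klhl41 0.56, Trim72 0.18, Sgca 0.32, Pygm 0.14 and Srpk3 0.25. Of the overlapping members, Mybpc1, Tcap and Ckm turned positive too. The list medians there were 0.31 for other sarcomere genes, 0.12 for the dystrophin complex, 0.22 for calcium coupling and 0.24 for myogenic regulators. With normexp and quantile scaling they were -0.15 for other sarcomere genes, -0.26 for calcium coupling and -0.071 for myogenic regulators. Calcium coupling was -0.48 with the filter on all 6 arrays, and a slide block gave -0.056 for other sarcomere genes and 0.075 for the dystrophin complex. With 1 array left out, other sarcomere genes ran from -0.42 to -0.23 calcium coupling from -0.61 to -0.45, the dystrophin complex from -0.23 to -0.087 and myogenic regulators from -0.51 to -0.18, the -0.18 without high-fat replicate 3. The cause of these changes was not tested. The sign held for 38 of 41 members in every fit with 1 array left out. Dim probes limit Srpk3, Mylpf, Actn2, Klhl41 and Myl2, and 3 mice per diet limit every estimate.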
